A study of Homo sapiens with 8 samples.

Results

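The genes of the mitochondrial ribosome (MRPL and MRPS genes) were followed across 2 human colorectal cancer cell lines with and without knockdown of NAT10. A gene was taken as a member when its symbol, read from the Entrez identifier in the count table, began with MRPL or MRPS followed by a number and did not name a pseudogene. This gave 77 of the 17309 genes in the table, 51 for proteins of the large subunit and 26 for proteins of the small subunit. MRPS30 and MRPS18A are counted with the large subunit, where their proteins sit in spite of their names. All 77 passed the filter on low counts, which left 13619 genes for testing. SW480 and DLD-1, established cell lines from colorectal adenocarcinoma, had been infected with a lentivirus that carried a control short hairpin RNA (shControl) or a hairpin against NAT10 (shNAT10). Each of the 4 groups (SW480 shControl, SW480 shNAT10, DLD-1 shControl and DLD-1 shNAT10) had 2 libraries labelled as biological replicates. No further treatment separates the groups, and the labels do not say which of the study's NAT10 hairpins was sequenced, nor whether the replicates came from separate infections, so the p-values measure the spread between these libraries.

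The mitochondrial ribosome makes the proteins that are encoded in mitochondrial DNA, all of them core subunits of the respiratory chain complexes and ATP synthase. Its ribosomal RNAs come from the mitochondrial genome, whereas every one of its proteins is encoded in the nucleus, translated in the cytosol and imported. Some of these proteins are homologues of bacterial ribosomal proteins and others are found only in mitochondria. NAT10, the knockdown target, is an enzyme that acetylates cytidines in ribosomal RNA, transfer RNA and has also been studied as an acetylase of messenger RNA.

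Between 15147805 and 17271336 counts were assigned per library, and the members took between 0.542% and 0.624% of them. Levels are given as CPM, the counts of a gene per 1000000 counts of its library after TMM scaling (trimmed mean of M values, which sets libraries to a common level over most genes). This is a measure relative to the rest of the mRNA, so that fewer transcripts per cell and a larger pool of other mRNA cannot be told apart. NAT10 itself fell in both lines. It stood at 122 and 122 CPM in the SW480 shControl libraries and at 23.6 and 27.9 CPM in the SW480 shNAT10 libraries. In DLD-1 it stood at 121 and 121 CPM with the control hairpin and at 59.0 and 54.4 CPM with shNAT10, so more of the message was left in DLD-1 than in SW480. Of 8 colorectal epithelial markers 7 were in the table, and their summed level was 3084 to 3864 CPM in SW480 and 7146 to 7701 CPM in DLD-1. Most of this sum was KRT8 and KRT18. VIL1 went the other way, with a mean of 14.5 CPM in SW480 shControl and 5.42 CPM in DLD-1 shControl. The leukocyte markers in the table summed to 17.7 to 31.0 CPM, almost all of it CD68. The fibroblast, endothelial and erythroid markers summed to at most 2.34, 1.64 and 0.938 CPM. Most of the fibroblast sum was COL1A1, which had a higher mean in SW480 shControl than in DLD-1 shControl. The fibroblast markers DCN and LUM were at or near 0.

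The members were expressed in every library and spread over a wide range of levels. On the length-normalised scale (FPKM, counts per transcript length and library size, deposited per transcript and summed per gene; mean ± SD of 2 shControl libraries) the 3 highest by the mean over the shControl libraries of both lines were MRPL41, MRPL23 and MRPS15. MRPL41, a large-subunit protein found only in mitochondria, was at 208 ± 30.9 FPKM in SW480 and 251 ± 12 FPKM in DLD-1. MRPL23 was at 159 ± 19.3 FPKM in SW480 and 300.2 ± 22.6 FPKM in DLD-1. MRPS15, a homologue of a bacterial small-subunit protein, was at 226 ± 10.6 FPKM and 220.3 ± 18.8 FPKM, so the order of these 3 genes was not the same in the 2 lines. In SW480 alone MRPS6 was above all 3, at 346 ± 37.4 FPKM against 85.7 ± 0.502 FPKM in DLD-1. MRPL53, at 231 ± 27.1 FPKM in SW480 and 128 ± 13.1 FPKM in DLD-1, was also above all 3 in SW480, though within its spread of MRPS15. The lowest 3 by the same mean over both lines were MRPL42, MRPS25 and MRPS23, all for proteins without a bacterial homologue. MRPL42 was at 5.41 ± 0.0354 FPKM in SW480 and 6.08 ± 0.0636 FPKM in DLD-1. MRPS25 (10.8 ± 0.276 and 10.1 ± 0.636 FPKM) and MRPS23 (10.4 ± 0.834 and 10.6 ± 0.325 FPKM) did not differ from each other beyond their spread in either line, and in SW480 MRPS33 (9.37 ± 0.0566 FPKM) stood below both.

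Summed over all 77 members, the level was 5756 and 5363 CPM in the SW480 shControl libraries and 6342 and 5844 CPM in the SW480 shNAT10 libraries. Both knockdown libraries of SW480 lay above both controls, with a mean that was 9.59% higher. The DLD-1 sums were 5852 and 5638 CPM with shControl and 5657 and 5651 CPM with shNAT10, so the groups overlapped and the means differed by −1.58%. The mean of the large-subunit sum differed by 9.80% in SW480 and −1.85% in DLD-1, and that of the small-subunit sum by 9.22% and −1.05%. The ratio of the large-subunit sum to the small-subunit sum was 1.79 to 1.86 in the 4 SW480 libraries and 1.93 to 1.99 in the 4 DLD-1 libraries. These ranges did not overlap, but MRPS6 counts in the small-subunit sum. It was at 242 and 207 CPM in SW480 shControl and at 57.0 and 56.9 CPM in DLD-1 shControl. The ratio carries the difference in this 1 gene and is not read as a balance of the subunits at large. With 2 libraries in a group no exact permutation test of one sum can pass 0.05, and none was made.

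The stretches of promoter below belong to the members on which the comparisons turn, MRPS34, MRPL12 and MRPL33 for the knockdown and MRPS6, MRPL17, MRPL16 and MRPS27 for the difference between lines. Each runs from 120 bases before to 30 bases after the annotated RefSeq start on GRCh38.p14 and is written 5′ to 3′ on the gene's own strand. Capitals mark matches, on either strand, to CCGGAAG (the core bound by ETS-family factors), AAGATGGC and ATGGCGGC (forms of the YY1 site) and TGCGCATGC (the site of NRF1, nuclear respiratory factor). AAGATGGC and ATGGCGGC share letters and can overlap.
MRPS34, chr16:1773105-1773254, minus strand: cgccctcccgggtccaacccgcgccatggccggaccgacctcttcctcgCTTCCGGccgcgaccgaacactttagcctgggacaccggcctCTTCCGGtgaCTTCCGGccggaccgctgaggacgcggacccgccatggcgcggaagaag
MRPL12, chr17:81703247-81703396, plus strand: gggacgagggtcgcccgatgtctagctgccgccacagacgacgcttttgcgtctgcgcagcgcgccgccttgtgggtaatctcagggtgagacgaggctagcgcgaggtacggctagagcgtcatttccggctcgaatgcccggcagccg
MRPL33, chr2:27771599-27771748, plus strand: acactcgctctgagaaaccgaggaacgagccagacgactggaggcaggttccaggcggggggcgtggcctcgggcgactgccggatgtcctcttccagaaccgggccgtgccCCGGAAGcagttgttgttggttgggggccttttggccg
MRPS6, chr21:34073458-34073607, plus strand: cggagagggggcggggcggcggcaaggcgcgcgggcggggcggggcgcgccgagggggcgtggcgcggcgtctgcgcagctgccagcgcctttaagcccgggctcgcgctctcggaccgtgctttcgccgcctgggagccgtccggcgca
MRPL17, chr11:6683311-6683460, minus strand: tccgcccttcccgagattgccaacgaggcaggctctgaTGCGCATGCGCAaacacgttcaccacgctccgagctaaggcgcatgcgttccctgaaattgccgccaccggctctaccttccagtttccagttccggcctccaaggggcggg
MRPL16, chr11:59810749-59810898, minus strand: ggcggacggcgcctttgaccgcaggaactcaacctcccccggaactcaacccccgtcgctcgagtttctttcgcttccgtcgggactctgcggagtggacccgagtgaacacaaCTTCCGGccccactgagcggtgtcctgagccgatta
MRPS27, chr5:72320211-72320360, minus strand: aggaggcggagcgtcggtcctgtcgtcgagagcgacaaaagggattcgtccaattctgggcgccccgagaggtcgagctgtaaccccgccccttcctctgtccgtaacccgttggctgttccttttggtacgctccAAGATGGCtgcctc

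MRPS34 carried CCGGAAG 3 times within 71 bases of its start, each time on the other strand, and the single matches of MRPL33 and MRPL16 lay 8 and 6 bases before theirs. The MRPL17 match is a pair of TGCGCATGC on opposite strands that overlap, and MRPS27 had AAGATGGC 17 bases past its start. Neither the MRPL12 nor the MRPS6 stretch held any of the 4 motifs. RefSeq windows from 250 bases before to 50 bases after the start were found for 69 of the 77 members and for 11035 of the 13619 genes tested. In these windows CCGGAAG was present for 30 members (43.5%), against 21.7% of the genes tested and 10.3% of all 35114 windows. AAGATGGC was present for 21 members (30.4% against 6.17% and 2.89%) and ATGGCGGC for 19 (27.5% against 7.10% and 3.0%), with 11 members that held both. The members thus carried these motifs at a higher share than genes at large, a description for which no test was made. TGCGCATGC was found for 5 members (7.25% against 3.07% and 1.56%), the E-box CACGTG for 9 (13.0% against 12.5% and 7.26%) and TATAAA for 3 (4.35% against 8.91% and 11.5%). Members with CCGGAAG had a median log2 fold change of 0.14 after knockdown in SW480 and those without it 0.17, and with or without AAGATGGC the medians were 0.16 and 0.15. A match says only that the letters stand in the window.

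The first comparison asked how the 2 lines differ in these genes in the control libraries. SW480 had 18 members higher than DLD-1 and 23 lower at an adjusted p under 0.05 (edgeR quasi-likelihood test, Benjamini-Hochberg over all genes tested). The shares were 23.4% and 29.9% of the members, against 38.1% of all genes tested that were higher and 35.6% that were lower. The median log2 fold change of the members was −0.01, against 0.01 for all genes tested, so the lines differed gene by gene and not as a block. It turned to 0.01 when SW480 shControl replicate 2 was left out and was −0.06 when replicate 2 of the DLD-1 controls or replicate 1 of the SW480 controls was. The members higher in SW480 had log2 fold changes up to 1.98 and those lower reached −1.24.

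**Figure D1:**
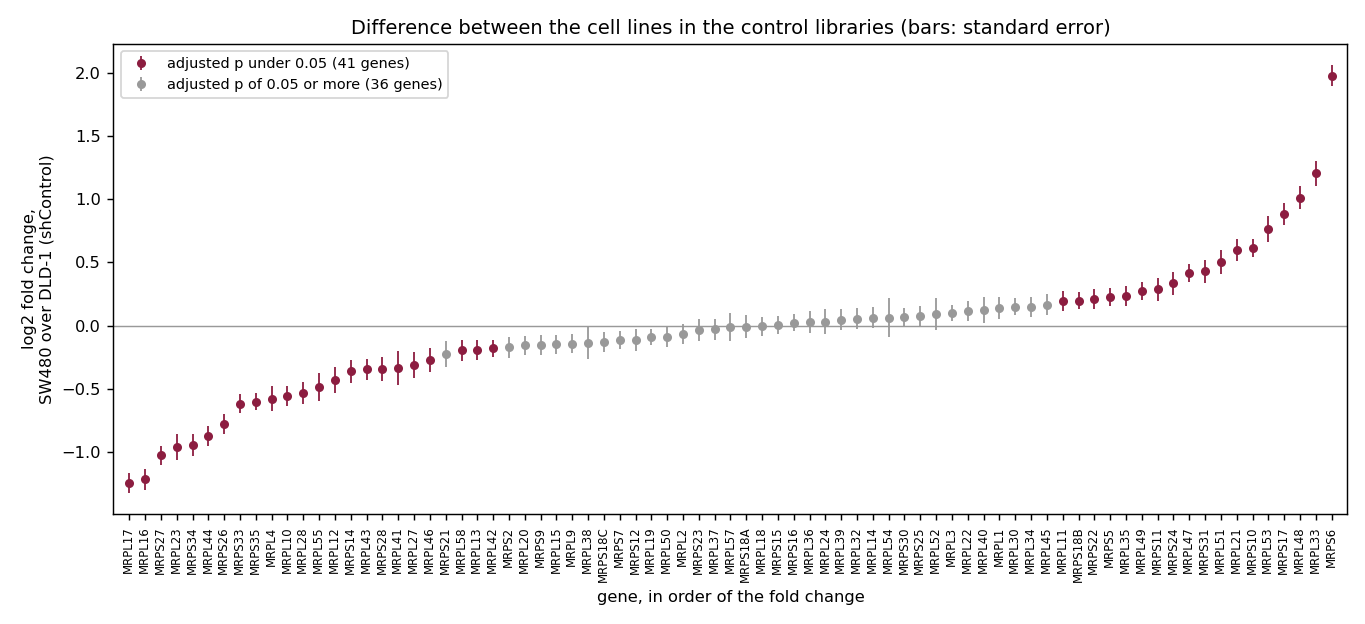
Log2 fold change of SW480 over DLD-1 in the shControl libraries for each of the 77 members, in order of the value, with bars for the standard error. The 41 members with an adjusted p under 0.05 stand in dark red and the other 36 in grey; MRPS6 stands alone at the top at 1.98, and MRPL17 and MRPL16 are lowest at −1.24 and −1.21.

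MRPS6, a small-subunit protein with a bacterial homologue (Entrez gene 64968, chr21:34073578-34143030 on GRCh38.p14), differed most. It was at 242 and 207 CPM in the SW480 shControl libraries and at 57.0 and 56.9 CPM in the DLD-1 shControl libraries. The lines were far apart, with a 3.94-fold difference (log2 1.98 ± 0.08 standard error, edgeR adjusted p = 1.8e-11). With shNAT10 it was at 241 and 225 CPM in SW480 against 52.6 and 53.7 CPM in DLD-1, a 4.38-fold difference (edgeR adjusted p = 8.6e-12). The exons of MRPS6 overlap those of SLC5A3, a myo-inositol transporter gene on the same strand, and SLC5A3 was at 106 and 110.4 CPM against 24.4 and 32.1 CPM in the same control libraries. Reads from the shared stretch cannot be told apart.

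The other members higher in SW480 came from both subunits. MRPL33, a homologue of a bacterial large-subunit protein (chr2:27771719-27779733), was at 31.9 and 29.2 CPM in SW480 and at 13.0 and 13.4 CPM in DLD-1 (log2 1.21 ± 0.10, edgeR adjusted p = 4.2e-08). MRPL48, a large-subunit protein found only in mitochondria (chr11:73787874-73865133), was at 39.3 and 40.2 CPM against 20.8 and 18.5 CPM (log2 1.01 ± 0.09, edgeR adjusted p = 1.1e-07). The SW480 libraries lay well above the DLD-1 libraries for both genes, and with MRPS6 they were the 3 members with a fitted difference above 2-fold. MRPS17 had a log2 fold change of 0.89 (edgeR adjusted p = 3.4e-07), MRPL53 of 0.77 (9.9e-06) and MRPS10 of 0.61 (2.6e-06). The exons of MRPL33, MRPL53 and MRPS17 overlap those of BABAM2, CCDC142 and NIPSNAP2 in turn, and the split of reads between them was not tested.

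Among the members lower in SW480, MRPL17 (Entrez gene 63875, chr11:6680385-6683340) and MRPL16 (Entrez gene 54948, chr11:59806140-59810778) led, both for large-subunit proteins with bacterial homologues and both on chromosome 11. MRPL17 was at 61.0 and 54.7 CPM in SW480 and at 136 and 138 CPM in DLD-1, which is 2.36-fold more in DLD-1 (log2 −1.24 ± 0.08, edgeR adjusted p = 2.7e-09). MRPL16 was at 38.2 and 35.2 CPM in SW480 and at 84.1 and 86.4 CPM in DLD-1 (log2 −1.21 ± 0.08, edgeR adjusted p = 5.9e-09). Replicates lay close together beside these gaps. MRPS27, a small-subunit protein of the pentatricopeptide repeat family (chr5:72219403-72320240), was at 58.5 and 57.8 CPM against 121 and 116 CPM (log2 −1.03 ± 0.07, edgeR adjusted p = 1.1e-08). MRPL23, whose bacterial homologue lines the exit of the peptide tunnel, had a log2 fold change of −0.96 (9.2e-07), MRPS34 of −0.94 (1.2e-07) and MRPL44, a protein with a ribonuclease III fold, of −0.87 (1.5e-07). In each of these 6 genes both SW480 libraries were below both DLD-1 libraries. The other 12 members called higher in SW480 ran from 0.19 (MRPL11) to 0.60 (MRPL21), and the other 17 called lower from −0.18 (MRPL42) to −0.78 (MRPS26).

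**Figure D2:**
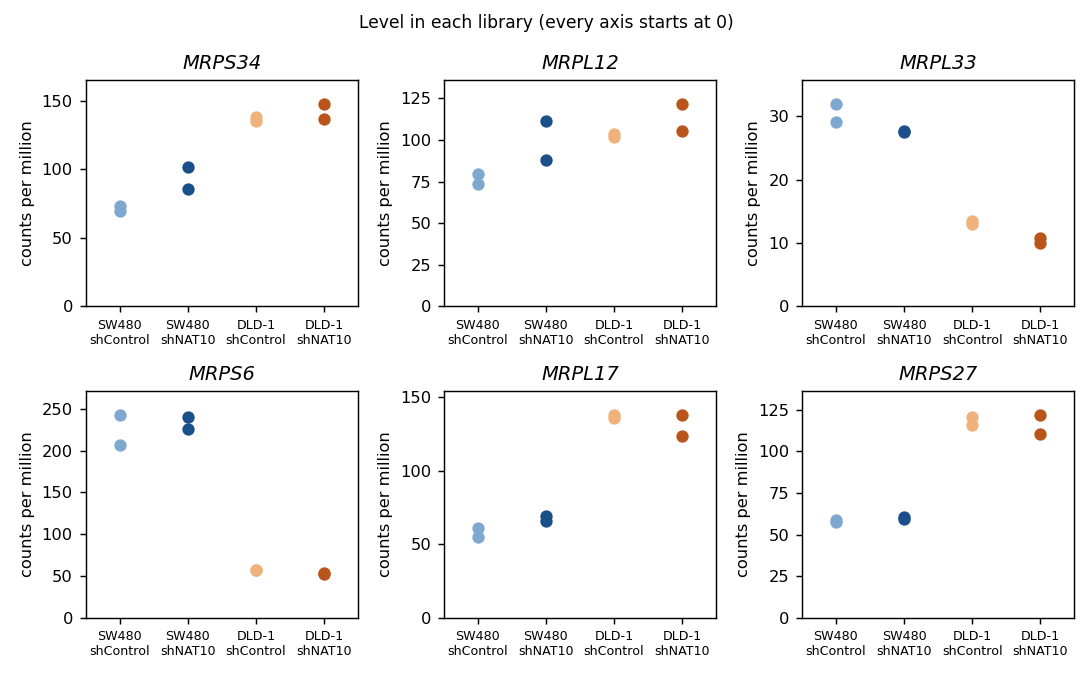
CPM in each library (points) for MRPS34, MRPL12, MRPL33, MRPS6, MRPL17 and MRPS27, by group, with every axis from 0. MRPS6 and MRPL33 are higher in both SW480 groups and MRPL17 and MRPS27 in both DLD-1 groups; MRPS34 lies lowest in SW480 shControl, at 73.0 and 69.3 CPM.

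With the NAT10 hairpin in both lines, 36 members were higher in SW480 and 15 lower (edgeR adjusted p under 0.05), or 46.8% and 19.5%, against 38.2% and 36.3% of all genes tested. The median was 0.13, against 0.01 for all genes tested. After a correction for transcript length the counts were 28 and 23. The comparisons with each hairpin share no library, and 18 members (23.4%) were higher and 15 (19.5%) lower in both, while 0 were called in opposite directions. Among all genes tested 34.5% were higher and 31.9% lower in both and 0.0514% were called in opposite directions. MRPL21, a large-subunit protein with a bacterial homologue, joined those with the largest values, with 87.2 and 79.7 CPM in SW480 shNAT10 against 44.9 and 45.4 CPM in DLD-1 shNAT10 (log2 0.89 ± 0.09, edgeR adjusted p = 3.4e-07). It had also been called with the control hairpin, at a log2 fold change of 0.60. MRPL17 stood at −0.96, MRPS27 at −0.95, MRPL16 at −0.92 and MRPS34 at −0.60, each with an edgeR adjusted p of at most 1.2e-05.

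The difference between lines was also read by chromosome. Across the 8 members on chromosome 17 the median log2 fold change of SW480 over DLD-1 in shControl was −0.17, against 0.00 for the 852 tested genes of that chromosome. Across the 8 on chromosome 2 it was 0.19 (0.10 for all), and across the 8 on chromosome 1 it was −0.15 (−0.10 for all). Members on 1 chromosome ranged widely, from −1.24 to 1.01 for the 7 on chromosome 11. MRPS26, the single member on chromosome 20, was at −0.78 where the 366 tested genes of that chromosome had a median of 0.44. The 4 members on chromosome 7 had a median of 0.20 where all of its genes had 0.42.

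The second comparison asked what NAT10 knockdown did to these genes in SW480. MRPS34 was the 1 member that rose at an adjusted p under 0.05 (edgeR quasi-likelihood test), and 0 fell, so 1.30% and 0% of the members were called against 0.778% and 0.903% of all genes tested. The fitted values leaned one way all the same. Of the 77 members 68 (88.3%) had a fitted value above 0, against 47.8% of all genes tested, with a median log2 fold change of 0.16 (all genes −0.01) and a range from −0.15 to 0.40. Large-subunit genes had a median of 0.15 and small-subunit genes of 0.17. DESeq2 called 4 members higher (MRPS34, MRPL12, MRPL4 and MRPS12) and 0 lower, and the share of all genes that it called was not counted. At an unadjusted p under 0.05 in edgeR, 29 members (37.7%) were higher and 0 lower, against 8.69% and 10.6% of all genes. At the limits the study states for differential expression (fold change above 1.2 or below 0.83 and unadjusted p under 0.05) 11 members were higher, or 14.3% against 4.1% of all genes, and 0 were lower, against 4.98%. For 44 members both shNAT10 libraries lay above both controls, which is 57.1% against 21.7% of all genes, and for 3 (MRPL33, MRPL42 and MRPL48) both lay below, which is 3.90% against 26.2%.

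These values moved when a single library was left out. The median was 0.09 when SW480 shNAT10 replicate 1 was dropped and also 0.09 when replicate 2 of the SW480 controls was, and 0.21 when either of the other SW480 libraries was. Between the replicates the median varied with an SD of 0.0916. The number of members past the adjusted threshold also changed with the library left out. Each such fit leaves 1 group with 1 library, and the share of all genes called in it was not counted.

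MRPS34, a small-subunit protein found only in mitochondria (Entrez gene 65993, chr16:1771895-1773134 on GRCh38.p14), was at 73.0 and 69.3 CPM in the SW480 shControl libraries and at 102 and 85.6 CPM in the shNAT10 libraries. Both knockdown libraries were above both controls, with a gap between the 2 knockdown libraries that was wider than that between the controls. The difference was 1.32-fold (log2 0.40 ± 0.09, edgeR adjusted p = 0.033). The adjusted p was 0.0014 without SW480 shNAT10 replicate 2 and ran from 0.058 to 0.37 without each of the other 7 libraries in turn, and it was 0.11 with no filter on low counts and 0.14 with the SW480 libraries fitted alone. In DLD-1 MRPS34 was at 138 and 135 CPM in shControl and at 148 and 137 CPM in shNAT10 (log2 0.06 ± 0.08, edgeR adjusted p = 0.98).

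MRPL12, a large-subunit stalk protein that is also known to bind the mitochondrial RNA polymerase (chr17:81703367-81707517), had the next largest fitted value. It was at 79.4 and 73.5 CPM in SW480 shControl and at 111 and 88.0 CPM in SW480 shNAT10 (log2 0.38 ± 0.10, edgeR adjusted p = 0.079). In DLD-1 it was at 104 and 102 CPM in shControl and at 122 and 105 CPM in shNAT10 (log2 0.14 ± 0.10, edgeR adjusted p = 0.92). The groups did not overlap in either line, and neither difference passed the threshold. MRPL52 (chr14:22829887-22835037), found only in mitochondria, was at 24.6 and 24.2 CPM against 35.8 and 27.6 CPM in SW480 (log2 0.37 ± 0.12, edgeR adjusted p = 0.13).

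The lowest fitted values in SW480 were those of MRPL33, MRPL42 and MRPL1. MRPL33 was at 31.9 and 29.2 CPM in shControl and at 27.5 and 27.7 CPM in shNAT10 (log2 −0.15 ± 0.09, edgeR adjusted p = 0.39). MRPL42 was at 83.1 and 81.4 CPM against 76.9 and 73.9 CPM (log2 −0.12 ± 0.07, edgeR adjusted p = 0.34). For MRPL1, a protein of the stalk beside the exit site, the groups overlapped, with 42.6 and 39.3 CPM against 37.1 and 39.95 CPM (log2 −0.09 ± 0.08, edgeR adjusted p = 0.61). None of the 3 passed the threshold.

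The 11 members past the study's limits in SW480 were 9 of the large subunit and 2 of the small subunit, and beside those above they are named here for having passed. MRPL4 was at 114 and 109 CPM in shControl and at 158 and 126 CPM in shNAT10 (log2 0.35 ± 0.10, edgeR adjusted p = 0.086). MRPS12, a homologue of a bacterial protein of the decoding centre, was at 57.4 and 52.8 CPM against 74.4 and 64.6 CPM (log2 0.34 ± 0.09, edgeR adjusted p = 0.069). For both genes the lower shNAT10 library stood closer to the nearest control than to the other shNAT10 library. MRPL36 was at 44.5 and 42.5 CPM against 57.8 and 50.9 CPM (log2 0.32 ± 0.08, edgeR adjusted p = 0.077), and MRPL15 at 60.7 and 59.2 CPM against 73.8 and 71.4 CPM (log2 0.28 ± 0.07, edgeR adjusted p = 0.076). The remaining MRPL16, MRPL23, MRPL41 and MRPL57 had fitted values of 0.28 to 0.29 with edgeR adjusted p of 0.11 to 0.26, and the groups of MRPL41 overlapped. MRPL57 was at 59.3 and 57.3 CPM against 81.8 and 60.2 CPM, and MRPL23 at 68.0 and 57.1 CPM against 84.1 and 69.0 CPM. For both, the lower shNAT10 library stood close to the higher control. In DLD-1 the fitted values of MRPL4, MRPS12, MRPL36 and MRPL15 were 0.06, 0.02, 0.00 and −0.10.

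In DLD-1, 0 members passed the adjusted threshold in either direction (edgeR quasi-likelihood test; 0% and 0.0147% of all genes tested were called higher and lower), and DESeq2 also called 0. At an unadjusted p under 0.05, 0 were higher and 2 (MRPL33 and MRPS10, 2.60% of the members) were lower, against 3.03% and 2.94% of all genes, so the share lower was near that of genes at large. At the study's limits 0 were higher and 1, MRPL33, was lower, against 1.34% of all genes in each direction. The median log2 fold change was −0.03 (all genes 0.00), 23 members were fitted above 0, and the values ran from −0.35 to 0.15. Both shNAT10 libraries lay above both controls for 7 members (9.09% against 17.7% of all genes) and below them for 16 (20.8% against 18.2%). Leaving out DLD-1 shControl replicate 1 gave a median of −0.01, and leaving out replicate 2 of that group gave −0.06.

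MRPL33 had the lowest fitted value in DLD-1 as it had in SW480. It was at 13.0 and 13.4 CPM in DLD-1 shControl and at 10.0 and 10.8 CPM in DLD-1 shNAT10, without overlap (log2 −0.35 ± 0.11, edgeR adjusted p = 0.59). MRPS10, a homologue of a bacterial small-subunit protein (chr6:42206807-42217861), was at 69.5 and 65.8 CPM against 59.3 and 60.7 CPM (log2 −0.17 ± 0.07, edgeR adjusted p = 0.82). MRPL22, whose bacterial homologue lines the peptide tunnel (chr5:154941073-154969411), was at 55.2 and 52.6 CPM against 46.5 and 51.3 CPM in DLD-1 (log2 −0.14 ± 0.08, edgeR adjusted p = 0.89). In SW480, MRPL22 had a fitted value of the opposite sign, 0.20 ± 0.08. At the other end stood MRPS2 with 125 and 132 CPM against 145 and 141 CPM (log2 0.15 ± 0.08), MRPL12 as given above, and MRPS17 with 22.8 and 23.5 CPM against 24.7 and 26.3 CPM (log2 0.14 ± 0.09). Their knockdown libraries were above the controls, and the edgeR adjusted p was 0.89 to 0.92.

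**Figure D3:**
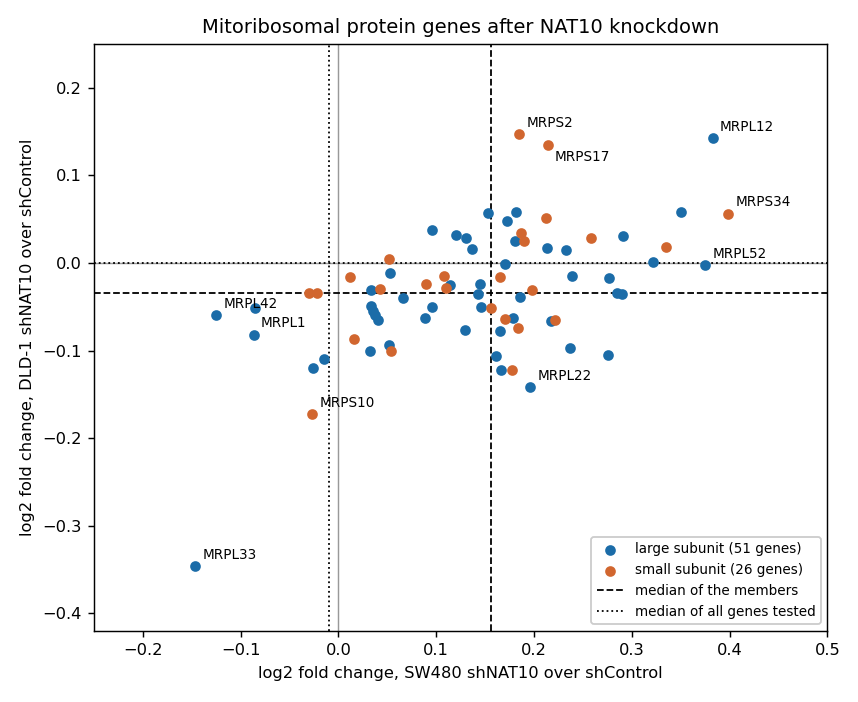
Log2 fold change of shNAT10 over shControl in SW480 (horizontal) and DLD-1 (vertical) for the 51 large-subunit and 26 small-subunit members, with dashed lines at the medians of the members (0.16 and −0.03) and dotted lines at the medians of all genes tested (−0.01 and 0.00). Most points lie right of 0 and near or below 0 on the vertical axis; MRPS34 and MRPL12 are farthest right, and MRPL33 is lowest on both axes.

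The third comparison asked whether the knockdown effect differed between the lines, as SW480 minus DLD-1 in the same model. Here 0 members passed the adjusted threshold (0% higher and 0.00734% lower among all genes tested, edgeR quasi-likelihood test), and DESeq2 also called 0. At an unadjusted p under 0.05, 14 members (18.2%) had a higher value in SW480 and 0 a lower one, against 4.5% and 4.88% of all genes. The median difference was 0.16 (all genes −0.01). Of the 77 members 74 (96.1%) were above 0, against 47.9% of all genes, the exceptions being MRPL1, MRPL42 and MRPL48. With the length correction the median difference was 0.08, and 57 members were above 0. The largest difference was that of MRPL15, a large-subunit protein with a bacterial homologue that was singled out after its value was seen (log2 0.38, edgeR adjusted p = 0.44). Omitting single libraries moved the median difference between 0.11 and 0.23, in fits that leave 1 group with 1 library. For the mean effect over both lines 0 members passed either, against 0.455% of all genes that were higher and 0.565% that were lower. At an unadjusted p under 0.05 in edgeR 11 members (14.3%) were higher and 1 (1.30%) lower, against 6.7% and 7.76% of all genes. DESeq2 called 2 members higher (MRPL12 and MRPS34), again without a count over all genes. MRPS34 had a mean log2 fold change of 0.23 ± 0.06 (edgeR adjusted p = 0.090), MRPL12 of 0.26 ± 0.07 (0.11), MRPL4, which has a bacterial homologue beside the peptide tunnel, of 0.20 ± 0.07 (0.19) and MRPL33 of −0.25 ± 0.07 (0.13).

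The SW480 knockdown values of the members went with the base composition of their transcripts. Over 5 bins of equal size of all tested genes by GC content, from the lowest to the highest, the members' median log2 fold change in SW480 was −0.01 (15 members), 0.09 (13), 0.16 (22), 0.17 (14) and 0.26 (13). The medians of all genes in the same bins were −0.11, −0.06, −0.01, 0.05 and 0.10, so values climbed with GC content among genes at large too, and the members' median lay above theirs in each bin. MRPS34 and MRPL12 have transcripts of 64.7% and 64.6% GC, and MRPL33, MRPL42 and MRPL1 of 41.3%, 37.6% and 37.0%. In DLD-1 the members' medians over these bins were −0.06, −0.05, −0.04, −0.01 and 0.03. Those of all genes there were −0.03, −0.02, 0.00, 0.02 and 0.04, so they climbed too, and the members' median lay below theirs in each bin. Length moved too. Members had a median transcript length of 1096.5 bases against 2039.3 for all genes, 48 of them fell in the shortest of 5 bins by length, and the SW480 median of all genes in that bin was 0.10 against −0.11 in the longest. With a correction for GC content the SW480 median of the members was 0.13, and with a correction for length it was 0.07. MRPS34 was called under both corrections, at log2 fold changes of 0.27 and 0.30.

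**Figure D4:**
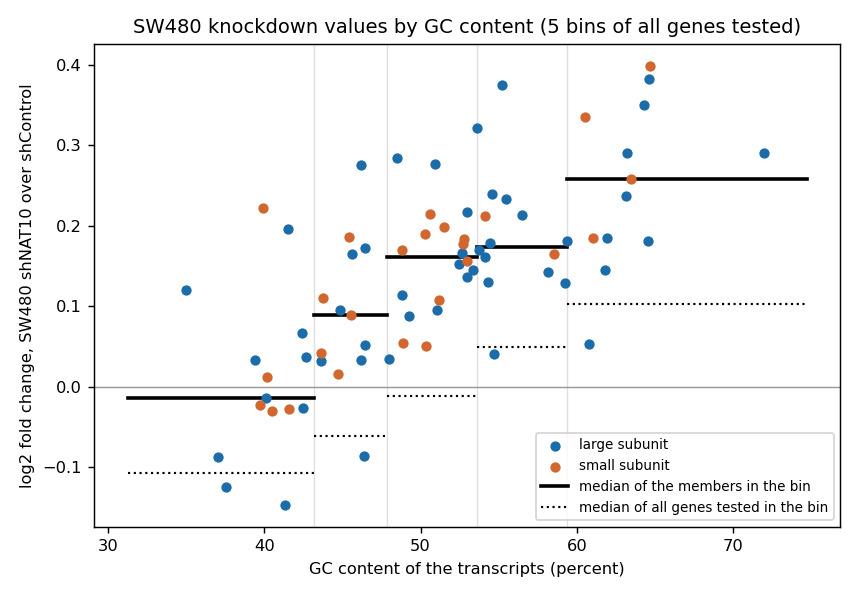
Log2 fold change of shNAT10 over shControl in SW480 for each member against the GC content of its transcripts in percent, with the median of the members (solid) and of all genes tested (dotted) in each of 5 bins of all genes by GC content. Both medians climb from left to right, from −0.01 to 0.26 for the members and from −0.11 to 0.10 for all genes.

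By structural class, the 30 large-subunit members with a bacterial homologue had a median log2 fold change of 0.16 in SW480 and −0.05 in DLD-1, and the 21 large-subunit members found only in mitochondria 0.14 and −0.03. The 16 small-subunit members with a bacterial homologue had 0.18 and −0.03, and the 10 without one 0.11 and −0.02. The classes thus lay within a narrow band in both lines, and MRPS34 was the only call among them. In the control comparison of the lines, the 10 small-subunit members without a bacterial homologue had a median of −0.32, with 3 higher and 5 lower against the 38.1% and 35.6% of all genes given above, and the other classes had medians between −0.05 and −0.01. The MRPS18 paralogues, which encode proteins at 3 different places in the ribosome, were MRPS18A (large subunit), MRPS18B and MRPS18C (small subunit). MRPS18B was at 116 and 110.3 CPM in SW480 shControl, 130.5 and 125 CPM in SW480 shNAT10, 100.2 and 97.0 CPM in DLD-1 shControl and 87.5 and 93.7 CPM in DLD-1 shNAT10. Its groups did not overlap in either line, and its fitted values had opposite signs (log2 0.18 ± 0.07 and −0.12 ± 0.07; edgeR adjusted p = 0.18 and 0.89). MRPS18A had 0.14 ± 0.09 and −0.04 ± 0.09, and MRPS18C −0.03 ± 0.08 in both lines. MRPS30, the large-subunit protein with a small-subunit name, was at 68.3 and 66.5 CPM in SW480 shControl and 78.4 and 73.5 CPM in SW480 shNAT10 (log2 0.17 ± 0.07, edgeR adjusted p = 0.21). MRPL58, a large-subunit protein that can also release peptides from stalled ribosomes, was at 52.4 and 47.0 CPM against 55.0 and 54.2 CPM (log2 0.14 ± 0.08, edgeR adjusted p = 0.38).

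The members have relatives in the genome that could take part of their reads. The exons of 27 members overlap those of another protein-coding gene in GENCODE, and no strand-marking step is stated for these libraries, so MRPS12 and SARS2, MRPL49 and FAU or MRPS27 and PTCD2 could share reads. Named pseudogenes exist for 41 members, 100 in all. The counts are divided over 189 transcripts, from 1 for 32 members to 15, and were summed per gene.

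Other genes of mitochondrial translation were read beside the members. The 5 mitoribosomal proteins with other names (AURKAIP1, CHCHD1, DAP3, GADD45GIP1 and PTCD3) had a median log2 fold change of 0.13 in SW480 and −0.02 in DLD-1 after knockdown, with 0 called. Among them CHCHD1 was lower in SW480 than in DLD-1 with the control hairpin (log2 −0.76, edgeR adjusted p = 3.2e-06) and PTCD3 higher (0.56, 1.2e-05). Of 27 assembly factors of the mitoribosome, RCC1L, a factor for ribosome assembly in mitochondria, was the 1 that rose in SW480 (log2 0.34 ± 0.07, edgeR adjusted p = 0.031). Among all genes tested 0.778% were called higher there. The median of these factors was 0.10 in SW480 and 0.01 in DLD-1. In the control comparison of the lines 7 of these 27 factors were higher in SW480 and 15 lower, against 38.1% and 35.6% of all genes tested. RBFA, NOA1 and MTERF3 were among those lower (log2 −1.24, −0.93 and −0.93). The 17 translation factors and the 16 genes of mitochondrial RNA synthesis and processing had medians of 0.04 and 0.04 in SW480 and of −0.02 and 0.07 in DLD-1, with 0 called in each.

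Of 20 mitochondrial aminoacyl-tRNA synthetases 0 rose. TARS2 and LARS2, which charge threonine and leucine tRNAs, fell in SW480 (log2 −1.31 and −0.88, edgeR adjusted p = 2.5e-05 and 6.0e-04), where 0.903% of all genes tested were called lower. TARS2 also fell in DLD-1 (−0.81, edgeR adjusted p = 0.0039). LARS2 was not called in DLD-1, where it was at 68.6 and 78.5 CPM in shControl and 56.8 and 51.7 CPM in shNAT10. For the mean of both lines TARS2 and LARS2 were both called lower (log2 −1.06 and −0.66, edgeR adjusted p = 2.5e-06 and 1.9e-04). The median of the synthetases was 0.03 in SW480 and −0.05 in DLD-1. The 9 transcription factors of nuclear genes for mitochondria had medians of 0.04 and 0.01, with 0 called in either line. The 73 tested proteins of the cytosolic ribosome had a median of 0.15 in SW480 (72 fitted above 0, 0 called) and −0.13 in DLD-1 (2 fitted above 0, 0 called). The 77 tested nuclear-encoded subunits of oxidative phosphorylation had 0.15 in SW480 and −0.07 in DLD-1. In SW480 5 were called higher and 0 lower, against 0.778% and 0.903% of all genes tested, and in DLD-1 0 were called. ATP5ME of ATP synthase and NDUFB10 of complex I were among the 5 in SW480 (log2 0.51 and 0.47; edgeR adjusted p = 0.020 and 0.017). The medians of the members (0.16 and −0.03) thus stood beside similar medians in SW480 for the cytosolic ribosome and for oxidative phosphorylation. For SW480 minus DLD-1 the median was 0.28 for the cytosolic ribosome (73 of 73 above 0) and 0.23 for oxidative phosphorylation (75 of 77). Both were larger than the 0.16 of the members, and nothing was tested between the lists.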

How the data were processed

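RNA-seq of shControl and shNAT10 cells of SW480 and DLD-1 was used, grouped by the line and hairpin in the labels. The estimated counts per RefSeq transcript that the authors deposited were made by BGI without normalization. The FPKM values, deposited per library and scaled for transcript length and library size, serve only for levels per length and for alternatives. The submitters' processing notes name HISAT2 2.0.4, Bowtie2 2.2.5, RSEM 1.2.12 and hg38, with no role given. RSEM-type estimates divide reads shared by transcripts, so counts were summed per gene (89.4% of member totals lay within 0.05 of a whole number) and rounded. The FPKM values of SW480 shNAT10 replicate 2 stop early, so that 14655 transcripts and 25 members had no complete value there, and FPKM alternatives cover 52 members.

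Gene totals were filtered with filterByExpr (minimum count 10, total 15), scaled by TMM and fitted with edgeR 4.0.16 (R 4.3.3) as 4 group means with all 8 libraries. Contrasts were tested by the quasi-likelihood test with Benjamini-Hochberg adjustment over all genes tested, at 0.05, and fold change limits of 1.2 and 0.83 with unadjusted p under 0.05 were applied beside it. The paper does not state its RNA-seq test. The standard error of a log2 fold change was taken as its size divided by the root of its F statistic. The model was tested on simulated data. Alternatives were a replicate term, DESeq2 1.42.0, upper-quartile normalization, other filters, the compared groups alone, limma 3.58.1 on log2(FPKM + 1) and log2(FPKM + 0.1), loess corrections for length and GC content (span 0.5, degree 2) and leaving out each library. Symbols, starts and promoter windows came from RefSeq (GRCh38.p14), with symbols for 99.3% of gene identifiers. Transcript lengths and overlapping exons came from GENCODE. The named members are those called (at most 12 per comparison, or the 6 largest in each direction), the 3 largest fitted values in each direction per knockdown comparison, the 3 highest and 3 lowest levels per length, the MRPS18 paralogues, MRPS30, MRPL12 and MRPL58. The members and all gene lists were chosen with earlier results of these data known.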

Additional observations from a re-analysis of the deposited data

How the results depend on the processing

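Medians and summed levels of the members moved by less than the spread between replicates under the alternatives run; with 1 exception, the shControl comparison of the lines, where the median ran from −0.06 to 0.02, the medians also kept their sign. Counts of calls moved past 1.5 times in 32 values and not in the other summary values. In SW480 the number of members called higher was 4 under DESeq2 (MRPS34, MRPL12, MRPL4 and MRPS12), 2 with a GC correction (MRPS34 and MRPL15), 11 at the study's limits and 0 with no filter, with the compared groups alone or on either FPKM scale (fewer members). Leaving out a library gave 0 to 27, the cause of which was not tested. In DLD-1 the study's limits gave 1 lower. For the mean of both lines DESeq2 gave 2 higher, a length correction 2 higher and 1 lower (MRPL33), and leaving out a library 0 to 10 higher. For the difference between lines the study's limits gave 11 higher and leaving out a library 0 to 3. At the study's limits 518 of the 13619 genes tested were higher for that difference and 552 lower, against 0 members lower. The share of all genes called with a library left out was not counted. Between lines, the FPKM scales gave 11 higher and 12 lower in shControl and 18 higher in shNAT10 (of 52 members). The length correction gave 23 lower in shNAT10. MRPL1 turned from −0.087 to 0.024 in SW480 with the GC correction.

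The labels share replicate numbers between hairpins. Over all genes tested, the same-numbered libraries correlated in their deviations by only 0.13 in SW480 and 0.04 in DLD-1, so the numbers were not taken as pairs. The summed level of the members was still higher in replicate 1 than in replicate 2 of each group. In SW480 it was 5756 against 5363 CPM with shControl and 6342 against 5844 CPM with shNAT10. In DLD-1 it was 5852 against 5638 CPM and 5657 against 5651 CPM. Whether the numbers mark pairs for the members was not tested. With a replicate block, 16 members were called higher in SW480, and for the mean of both lines 5 higher and 1 lower. The share of all genes called with this block was not counted.

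With 2 libraries per group the spread of one gene is poorly known, and the 0.0585 biological coefficient of variation is shared across genes. No member was near the filter on low counts.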
